A study of Homo sapiens with 9 samples.

Results

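COR-L279 cells treated for 24 h with 1.5 µM JQ1 were compared with COR-L279 cells given DMSO, the solvent of the drug, for the same time. The libraries were taken by these labels, with earlier results of the data known. They were 3 libraries at 1.5 µM and 3 with DMSO, which makes 6 of the 9 in the series. The other 3 libraries, at 0.5 µM for 24 h, entered the estimate of spread and are given beside some results. The line was established from a human small cell lung cancer; its genotype is labelled WT and its subtype SCLC-N, the class marked by the neurogenic factor NEUROD1. The cells of every group were grown in RPMI medium with 10% heat-inactivated fetal bovine serum. The labels call the libraries of a group biological replicates without saying what was kept separate, so the p-values measure the spread between these libraries. All groups are 1 cell line, and a change in bulk RNA cannot tell fewer cells of a kind from less RNA per cell.

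JQ1 occupies the acetyl-lysine pockets of the BET proteins and displaces them from acetylated chromatin. BET proteins help to recruit P-TEFb, the kinase that releases paused RNA polymerase II into productive elongation, and genes under large enhancers are known to depend on them. In cells given a BET inhibitor, HEXIM1 usually increases: it is the protein that holds P-TEFb inactive together with the 7SK RNA, and its transcript is widely used as a marker of target engagement.

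HEXIM1 was the check of the treatment label. The DMSO libraries held 1133, 1142 and 1101 normalized counts of HEXIM1, and the 1.5 µM libraries held 7101, 6819 and 7007 (read counts divided by a size factor per library). The groups stood far apart, a 6.1995-fold higher mean at 1.5 µM (log2 fold change 2.63, SE 0.03, adjusted p 1.26e-11, limma with Benjamini-Hochberg adjustment over all genes). The subtype label was checked too: NEUROD1 was present in every library, at 47678, 48167 and 48883 normalized counts with DMSO and 66323, 66768 and 68129.7 at 1.5 µM. It was higher with JQ1 by a log2 fold change of 0.48 (SE 0.03, adjusted p 9.57e-08). All 8 neuroendocrine markers listed for these cells were expressed. NEUROD1 and NCAM1 rose, CHGA, SYP and DLL3 fell, and INSM1, SCG3 and BEX1 did not pass the test. Of 8 hepatocyte, 8 endothelial and 8 leukocyte markers, 0, 1 (CLDN5) and 1 (CD14) were expressed enough to be tested. The endothelial marker PECAM1 had no values under this symbol, so its level is unknown. VWF, TEK, EMCN and HNF4A were listed at 0 FPKM in all 9 libraries.

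The 6 libraries held 67520035 to 88482001 reads in genes, and 17514 genes were tested. The first principal component took 71.5% of the variance and parted all DMSO libraries from all JQ1 libraries. Within the 1.5 µM group, replicates 1 and 2 stood apart from replicate 3 in a small set of genes. H19, an imprinted noncoding RNA, had 2071, 1476 and 2.05 normalized counts in these 3 libraries and 70.97, 63.8 and 82.8 in the DMSO libraries. SLC2A3, a glucose transporter, had 479, 390.5 and 0 at 1.5 µM and 0, 1.56 and 0.941 with DMSO. H19 did not pass the test (log2 fold change 1.53, SE 2.66, adjusted p 0.62), nor did SLC2A3 (log2 fold change 5.07, SE 2.54, adjusted p 0.0952). By a fixed rule, 118 genes were at least 2-fold higher in replicates 1 and 2 than in replicate 3, and they are named as such wherever they appear below. With replicates 1 and 2 left out, 5295 genes were called higher and 5278 lower. The 1.5 µM group is then 1 library, assumed to vary like the libraries of the other groups, and this holds for every value given without replicates 1 and 2.

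Most of the transcriptome differed between the groups. Of the 17514 genes, 6468 (36.9%) were higher and 6338 (36.2%) lower at 1.5 µM at an adjusted p under 0.05, which makes 73.1% called in either direction. The groups did not overlap for 14310 genes (81.7%). Large changes were fewer and leaned down: 1235 genes (7.05%) were at least 2-fold higher and 2066 (11.8%) at least 2-fold lower. At 4-fold the counts were 204 higher and 759 lower, at 8-fold 56 and 258, and at 16-fold 16 and 90. The median size of a called change was 0.58 on the log2 scale. Counts of list members called are to be read against these shares.

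**Figure D1:**
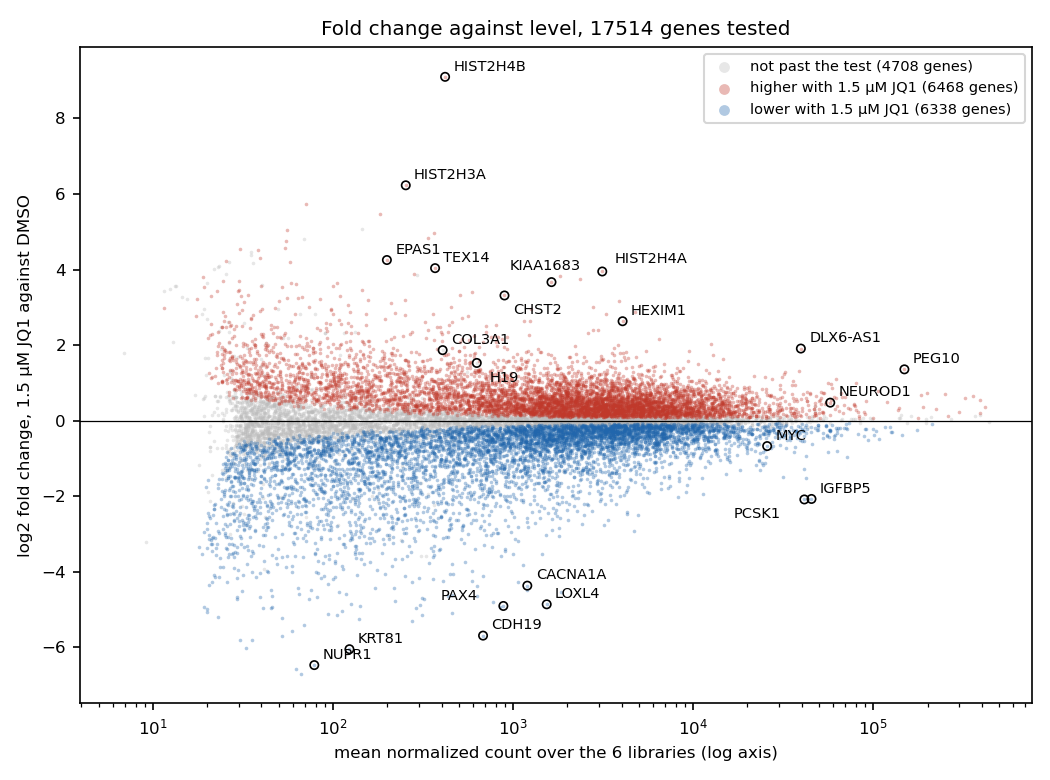
Each point is 1 gene, with its mean normalized count over the 6 libraries on the x axis (log axis) and its log2 fold change at 1.5 µM JQ1 against DMSO on the y axis. Red genes were higher (6468), blue genes lower (6338) and grey genes did not pass the test (4708); circled genes are named in the text. The cloud reaches further down than up, with 759 genes at least 4-fold lower and 204 at least 4-fold higher.

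The BET and P-TEFb genes moved mostly up. Of 29 listed genes tested, 16 rose, 8 fell and 5 did not pass, with a median log2 fold change of 0.18 against -0.0030 over all genes tested. BRD2, a BET protein, went from 16807, 17662 and 17855 to 36765, 37521 and 37793 normalized counts (log2 fold change 1.10, SE 0.03, adjusted p 1.06e-09). BRD3, another BET protein and one chosen for naming after its values were seen, rose by a smaller fold. It had 9282, 9573 and 9745 with DMSO and 14299, 14647 and 14579 at 1.5 µM, with a log2 fold change of 0.61 (adjusted p 4.01e-05). MLLT3, a subunit of the super elongation complex that carries P-TEFb, rose from 2043, 2192 and 2151 to 4388, 4326 and 4531 (log2 fold change 1.05). HEXIM2, the close relative of HEXIM1, went the other way, from 215, 212 and 211 to 96.9, 118 and 109 (log2 fold change -0.98, adjusted p 1.72e-05). The pair of P-TEFb inhibitors thus had opposite signs, and the groups did not overlap for either.

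MYC, the growth-promoting transcription factor that BET inhibition is best known for lowering, was abundant in these cells and fell moderately. It had 31633, 31714 and 31562 normalized counts with DMSO, 22651, 22313 and 22715 at 0.5 µM and 19647, 19846 and 19962 at 1.5 µM. The 1.5 µM mean was 1.596-fold lower than that of DMSO (log2 fold change -0.67, SE 0.02, adjusted p 2.33e-09), and the libraries of a group lay within a few percent of each other.

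Histone genes of the replication-dependent clusters rose together, and theirs was the only one of 47 lists in which all tested members passed the test. These genes lack introns, and their messages normally end in a stem-loop rather than a poly(A) tail. The counts do not show how the messages ended, so a change in amount cannot be told from a change in the message ends. Of 64 genes listed, 38 were tested and all 38 rose, 34 of them at least 2-fold, with a median log2 fold change of 2.51 and a range of 0.60 to 9.10. Their summed normalized counts were 9717 to 9885 with DMSO and, with 1.5 µM JQ1, 50119 to 50919. HIST2H4B and HIST3H2BB had under 10 normalized counts in every DMSO library and entered the test only through the JQ1 libraries. Such members could only rise, so the count of 38 of 38 is in part fixed by the filter. The other listed genes were not tested. Summed by family, the linker histones H1 went from 2169, 2017 and 2071 to 6604, 6304 and 6190.1 normalized counts, 3.05 times the DMSO mean. The 11 H2A genes rose 6.58-fold as a sum and the 12 H2B genes 4.35-fold. The 6 H3 genes, low with DMSO at 101, 104 and 98.8, reached 1611, 1776 and 1763, which is 16.9-fold. The 7 H4 genes went from 626, 588 and 639.8 to 7636, 7665 and 7489.8, or 12.3-fold.

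Single histone genes showed the same tight replicates. HIST1H2BD, an H2B gene, had 228, 251 and 236 normalized counts with DMSO and 3293, 3456 and 3397 at 1.5 µM (log2 fold change 3.82, SE 0.05, adjusted p 2.96e-11). HIST1H2AC, an H2A gene, had 338, 322 and 311 and 4279, 4417 and 4392 (log2 fold change 3.75, SE 0.06, adjusted p 4.67e-11). Its neighbour HIST1H2BC, read in the opposite direction from the same promoter, had 118, 84.8 and 106 and 1069.98, 1073 and 1109 (log2 fold change 3.40, SE 0.12, adjusted p 2.24e-09). In each of these genes the lowest 1.5 µM library was several times the highest DMSO library. HIST3H2BB had 4.06, 0.778 and 2.82 with DMSO and 109, 119 and 95.4 at 1.5 µM, HIST1H2AE 97.3, 89.4 and 86.6 and 967, 890.1 and 904, and HIST1H3D 13.2, 19.4 and 12.2 and 171, 202 and 212. HIST2H4A and HIST2H4B are near-identical copies, as are HIST2H3A and HIST2H3C, and reads may be split between copies at will. They are therefore given as sums, which the split cannot change. HIST2H4A and HIST2H4B together had 391, 376 and 373 with DMSO and 6745, 6736 and 6630.2 at 1.5 µM. HIST2H3A and HIST2H3C together had 36.5, 32.7 and 26.3 and 1102, 1278 and 1232. H1FX, a linker histone variant that is outside the clusters, also rose, from 23502, 23508 and 22979 to 48132, 45904 and 49996 (log2 fold change 1.04, SE 0.06, adjusted p 7.80e-08).

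**Figure D2:**
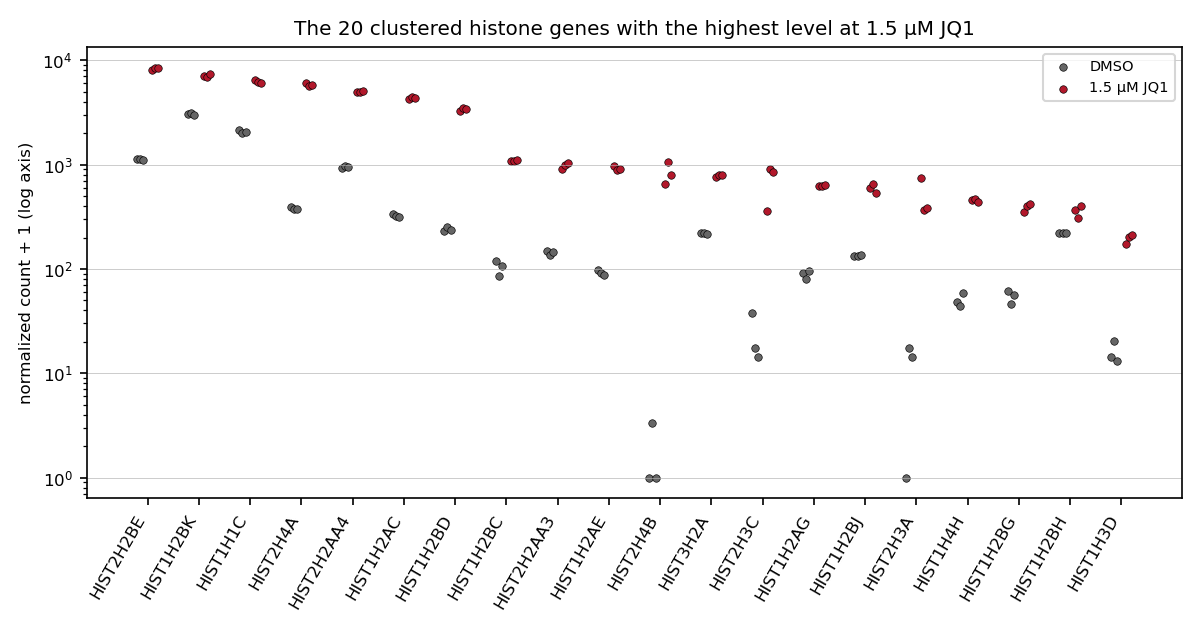
Normalized count + 1 on a log axis for the 20 clustered histone genes with the highest mean at 1.5 µM, with 1 point per library (grey, DMSO; red, 1.5 µM JQ1; 3 of each). All 20 genes have red points above grey ones, and the copies HIST2H4B, HIST2H3A and HIST2H3C show the scatter of reads divided between copies.

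The promoters of the histone genes HIST1H2AC and HIST1H2BD and of the marker gene HEXIM1, from RefSeq's table (GRCh38.p14), are printed as a description. Those of the other leading risers are not printed. Each run is the 250 bases before the annotated start, read 5′ to 3′ on the gene's strand. Capitals mark 3 motifs searched on both strands: the octamer ATTTGCAT bound by POU factors such as OCT1 (or ATGCAAAT on the other strand), the CCAAT box (or ATTGG) and the TATA box TATAAA (or TTTATA). HIST1H2AC lies at chr6:26123922-26124171 (plus strand), HIST1H2BD at chr6:26157871-26158120 (plus strand) and HEXIM1 at chr17:45148225-45148474 (plus strand).
HIST1H2AC: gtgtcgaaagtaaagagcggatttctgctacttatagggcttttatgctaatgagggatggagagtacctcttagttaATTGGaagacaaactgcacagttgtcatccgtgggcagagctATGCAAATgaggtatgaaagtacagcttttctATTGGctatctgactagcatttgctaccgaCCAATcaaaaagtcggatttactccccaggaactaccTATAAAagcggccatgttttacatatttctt
HIST1H2BD: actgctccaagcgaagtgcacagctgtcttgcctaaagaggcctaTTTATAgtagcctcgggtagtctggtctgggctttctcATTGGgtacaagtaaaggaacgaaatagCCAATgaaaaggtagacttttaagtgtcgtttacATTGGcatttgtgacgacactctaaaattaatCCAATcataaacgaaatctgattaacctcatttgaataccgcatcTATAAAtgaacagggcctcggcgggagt
HEXIM1: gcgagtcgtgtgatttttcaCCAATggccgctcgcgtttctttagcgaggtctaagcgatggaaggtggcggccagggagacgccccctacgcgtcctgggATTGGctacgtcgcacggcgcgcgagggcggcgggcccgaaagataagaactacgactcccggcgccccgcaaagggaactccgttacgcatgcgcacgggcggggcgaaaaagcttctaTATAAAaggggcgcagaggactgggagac
The window of HIST1H2BC (chr6:26123927-26124176, minus strand) shares 245 bases with that of HIST1H2AC, and within these bases the run of HIST1H2BC is the reverse complement of the run printed for HIST1H2AC. The HIST1H2AC window held all 3 motifs, and those of HIST1H2BD and HEXIM1 held the CCAAT and TATA boxes. The motifs that the printed histone windows share were thus also in that of HEXIM1, which is not a histone gene. Over all 35116 windows of this length in the table, 1.63% held the octamer, 32.01% a CCAAT box and 10.7% the TATA box on either strand. A match is a description of the letters and no evidence that a factor binds. A comparison of motif shares between changed genes and all genes is void, because 74.0% of the coding genes at least 2-fold lower had a promoter in the table.

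Outside the histones, the genes with the largest rises came from unrelated families. TEX14, known for the intercellular bridges of germ cells, had 43.6, 46.7 and 34.8 normalized counts with DMSO, 379.7, 502 and 403 at 0.5 µM and 722, 666 and 698 at 1.5 µM (log2 fold change 4.04, SE 0.13, adjusted p 1.38e-09). KIAA1683 rose 12.8-fold, from 231, 255 and 225 to 3339.8, 2959 and 2781 (log2 fold change 3.67, SE 0.09, adjusted p 2.78e-10). CHST2, a sulfotransferase that modifies N-acetylglucosamine, had 160.2, 171 and 157 and 1659.6, 1604 and 1615 (log2 fold change 3.31, SE 0.07, adjusted p 1.38e-10). The rule that picked these 3 genes required groups that do not overlap, so their separation is no result. The 0.5 µM libraries lay between. RIMS4, a relative of the presynaptic active zone proteins, went from 21.3, 27.99 and 44.2 to 323, 254 and 266 (log2 fold change 3.19). KCNJ2-AS1 went from 25.3, 18.7 and 26.3 to 236, 265 and 301 (log2 fold change 3.46). This transcript is named as antisense to the potassium channel gene KCNJ2, and whether the counting used strand is not stated in the sources at hand. EPAS1, which encodes a hypoxia-inducible factor, moved with the libraries set apart. It had 21.3, 12.4 and 15.1 with DMSO and 584, 429 and 131 at 1.5 µM (log2 fold change 4.25, SE 0.66, adjusted p 0.000155). Replicate 3 was also above all DMSO libraries. Against DMSO, that 1 library had a log2 fold change of 2.97, with an adjusted p of 0.0157 that rests on the spread of the other groups.

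The largest falls left little of the transcript. CDH19, a cadherin of glial and neural crest cells, had 1265, 1390.3 and 1347 normalized counts with DMSO and 32.99, 15.97 and 28.7 at 1.5 µM (log2 fold change -5.69, SE 0.22, adjusted p 3.83e-09). LOXL4, a lysyl oxidase-like enzyme that crosslinks collagen, had 2959, 2989.8 and 2956 and 82.5, 114 and 109.8 (log2 fold change -4.86, SE 0.12, adjusted p 2.78e-10). PAX4, a transcription factor of the endocrine pancreas, had 1708, 1645 and 1768 and 51.5, 70.1 and 48.2 (log2 fold change -4.91, SE 0.14, adjusted p 6.17e-10). In all 3 genes the libraries of a group were close and every 1.5 µM library was under 10% of any DMSO library. BRS3, a receptor of the bombesin family, fell 31.1-fold, from 1653, 1645 and 1584 to 46.4, 46.1 and 64.6 (log2 fold change -4.95, SE 0.15, adjusted p 8.03e-10). SH3TC1 fell from 577, 624 and 611 to 22.7, 8.87 and 20.5 (log2 fold change -5.14). NWD1 fell from 587, 541 and 628 to 18.6, 14.2 and 25.6 (log2 fold change -4.88). C2orf54 went from 581, 554 and 552 to 21.6, 14.2 and 16.4 (log2 fold change -4.95). SPDEF, an ETS factor of secretory epithelia, went from 289, 274 and 247 to 12.4, 2.66 and 6.16 (log2 fold change -5.26). MCHR1, the receptor for melanin-concentrating hormone, went from 209, 185 and 217 to 7.22, 1.77 and 7.18 (log2 fold change -5.16). These genes ended near the level of a few reads, where the log2 scale of value + 1 understates the fold. FAM135B (218, 209 and 217 to 9.28, 0.887 and 13.3) and MLKL, the effector of necroptosis (253, 252 and 227 to 8.25, 7.99 and 6.16), were of the same kind. ZACN, a zinc-activated ion channel, varied most among the leading falls, with 979, 383 and 234 in the DMSO libraries and 43.3, 3.55 and 6.16 at 1.5 µM (log2 fold change -5.30, SE 0.82, adjusted p 0.000154).

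The promoter of BRS3 is printed as an example of a gene that lost most of its transcript and whose promoter holds an E-box, CAGATG (or CATCTG), one form of the sites that bHLH factors of the NEUROD and ASCL families bind. It is the 250 bases before the start at chrX:136487697-136487946 (plus strand, GRCh38.p14, RefSeq), with the E-box in capitals.
BRS3: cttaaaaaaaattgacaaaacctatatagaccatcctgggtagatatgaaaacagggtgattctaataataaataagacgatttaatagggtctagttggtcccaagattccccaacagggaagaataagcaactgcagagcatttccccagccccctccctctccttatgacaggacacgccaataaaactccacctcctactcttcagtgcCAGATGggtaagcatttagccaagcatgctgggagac
That hexamer is common: 12.2% of all 35116 windows of this length held it on either strand. The single match carries no information on which factor acts there.

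**Figure D3:**
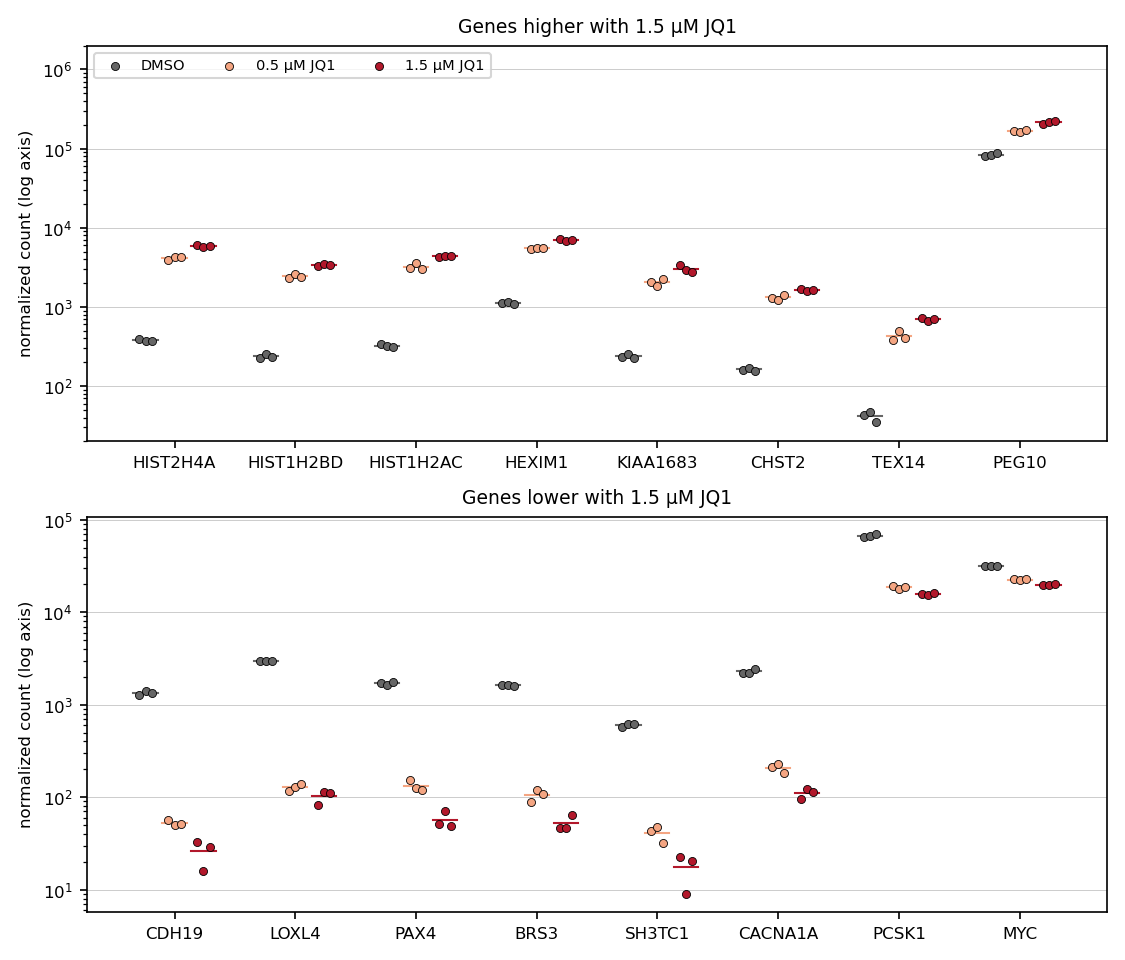
Normalized count per library (log axis) for 8 genes higher and 8 lower at 1.5 µM JQ1, with 3 libraries each of DMSO (grey), 0.5 µM (light) and 1.5 µM (dark red) and a line at each mean. The 1.5 µM points lie outside the range of the DMSO points in all 16 genes, from MYC, which fell 1.596-fold, to CDH19, which fell 51.5-fold. For genes picked as the largest changes, the naming rule required this separation.

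Among abundant transcripts the folds were smaller and the replicate spread was small. PEG10, a retrotransposon-derived imprinted gene, went from 79788, 83251 and 87699 to 206297, 216135 and 219684 normalized counts (log2 fold change 1.36, SE 0.04, adjusted p 7.45e-10). DLX6-AS1, a noncoding RNA of the DLX5 and DLX6 locus, went from 16194, 16748 and 17045 to 61368, 63332 and 62838 (log2 fold change 1.91, SE 0.03, adjusted p 3.41e-11). POLR2A, the largest subunit of RNA polymerase II, went from 18033, 19075 and 20285 to 42204, 43243 and 43297 (log2 fold change 1.17, SE 0.05, adjusted p 5.86e-09). All 3 rose with no overlap between groups. CIRBP, the cold-inducible RNA-binding protein, rose 2.501-fold. The neuronal intermediate filament INA rose 2.43-fold, the pentraxin receptor NPTXR 2.34-fold, the spectrin SPTAN1 2.16-fold and carboxypeptidase D (CPD) 2.22-fold. Abundant genes that fell included secreted and growth-related proteins. IGFBP5, which binds insulin-like growth factors, went from 70687, 72399.7 and 76823 to 16925, 17913 and 17343 (log2 fold change -2.07, SE 0.06, adjusted p 7.81e-10). DLK1, a noncanonical Notch ligand, went from 62868, 61577 and 62223 to 22332, 20826 and 22264 (log2 fold change -1.51, SE 0.05, adjusted p 1.77e-09). EEF1A2, the neuronal translation elongation factor, went from 59957, 57677 and 58134 to 24651, 23841 and 24459.7 (log2 fold change -1.27, SE 0.06, adjusted p 1.08e-08). BCAT1, the cytosolic branched-chain aminotransferase, fell 2.84-fold and the synaptic complexin CPLX2 2.17-fold. HDGF, BLMH, AES and TAGLN2 fell 2.28-fold, 2.16-fold, 2.47-fold and 2.06-fold.

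Most neuroendocrine secretory and peptide genes fell. Small cell lung cancer cells store peptide hormones and amines in dense-core granules. Of 35 secretory and peptide genes tested, 24 fell, 5 rose and 6 did not pass, with a median log2 fold change of -0.75. PCSK1, the prohormone convertase that cuts peptide precursors, went from 65105, 66756 and 69235 to 15576, 15491 and 16234 normalized counts (log2 fold change -2.09, SE 0.04, adjusted p 6.95e-11). UCN3, a peptide of the corticotropin-releasing family, went from 1132, 1167 and 1046 to 71.1, 69.2 and 66.7 (log2 fold change -3.99, SE 0.10, adjusted p 2.56e-10). SLC18A1, which loads monoamines into granules, went from 341, 323 and 314 to 11.3, 18.6 and 13.3 (log2 fold change -4.43, SE 0.22, adjusted p 2.71e-08). The DMSO and 1.5 µM libraries were separated in all 3. CRH, the corticotropin-releasing hormone, fell 4.92-fold, and GRP, the gastrin-releasing peptide that is a growth factor for these tumours, fell from 115, 101 and 106 to 21.6, 23.1 and 18.5 (log2 fold change -2.30). CHGA, the granule protein chromogranin A, fell by a smaller amount, from 66666, 66052 and 64341 to 49302, 47274 and 48603 (log2 fold change -0.44). The 8 neuroendocrine marker genes had a median log2 fold change of -0.11 and summed to 246829 to 248216 normalized counts with DMSO and 251319 to 256465 at 1.5 µM. Markers of non-neuroendocrine small cell lung cancer cells moved as well. Of 8 tested, 5 fell, 1 rose and 2 did not pass (median -0.95), and their sum was 25059 to 25519 with DMSO and 9693 to 10416 at 1.5 µM. CD44, the hyaluronan receptor, went from 13983, 13972 and 14332 to 4796, 5103 and 4899.5 (log2 fold change -1.51, adjusted p 1.80e-10), and S100A6, VIM, LGALS1 and MYOF also fell, MYOF being among the genes higher in replicates 1 and 2. REST, the repressor of neuronal genes, rose from 25.3, 36.5 and 17.9 to 94.8, 80.8 and 65.7 (log2 fold change 1.60, adjusted p 0.000389). Whether these markers had a part in the other changes was not tested.

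Receptors and channels of excitable cells fell more often than they rose. Of 20 peptide and amine receptors, 15 fell and 2 rose (median log2 fold change -0.89). SSTR1, a somatostatin receptor, went from 1879, 1909.7 and 1957 to 224, 199.7 and 210.3 normalized counts (log2 fold change -3.18, SE 0.08, adjusted p 2.83e-10). RAMP2, which partners the calcitonin receptor-like receptor, fell 9.62-fold and the calcitonin receptor CALCR 7.09-fold. Of 29 subunits of fast neurotransmitter receptors, 22 fell and 5 rose (median -1.04). CHRNA1, the muscle-type nicotinic receptor subunit, went from 1025, 987 and 1019.9 to 88.6, 55.02 and 83.1 (log2 fold change -3.75, SE 0.16, adjusted p 8.95e-09). The ATP-gated channel P2RX5 fell from 1920.4, 1801 and 1885 to 289, 234 and 269 (log2 fold change -2.82), and the glutamate receptor subunit GRIN2D fell as well (log2 fold change -2.26). Of 47 voltage-gated channel genes, 30 fell and 10 rose (median -0.49). CACNA1A, the pore of the P/Q-type calcium channel, went from 2217, 2219 and 2419.8 to 94.8, 122 and 113 (log2 fold change -4.37, SE 0.11, adjusted p 2.83e-10). The potassium channel KCNA2 fell 6.19-fold.

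Synaptic and adhesion genes were divided. Of 36 genes of synaptic vesicles and exocytosis, 16 rose and 16 fell, with a median log2 fold change of -0.00. PCLO, a giant scaffold of the active zone, went from 4177, 4886 and 5482 to 12071, 12036 and 11639.5 normalized counts (log2 fold change 1.31, SE 0.08, adjusted p 1.62e-07), and the vesicle SNARE VAMP1 rose 2.96-fold. The calcium sensor DOC2B fell 4.34-fold. Of 34 neural adhesion genes, 20 fell and 13 rose. CADM2 rose from 91.3, 91.8 and 87.5 to 527, 545 and 589.9 (log2 fold change 2.60, SE 0.08, adjusted p 9.97e-10), whereas the adhesion proteins LRRTM1, CNTN2 and OPCML fell 4.28-fold, 4.23-fold and 6.19-fold. Of 29 cadherins, 13 fell and 12 rose. CDH10 fell from 5344, 5544 and 5526 to 1366, 1393 and 1436 (log2 fold change -1.97, SE 0.05, adjusted p 2.18e-10), and CDH9 and CDH22 fell 3.81-fold and 4.17-fold.

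Lineage transcription factors fell somewhat more often than they rose. Of 46 tested, 24 fell and 18 rose, with a median log2 fold change of -0.20. NEUROD6, a relative of NEUROD1, went from 162, 122 and 119 to 3.09, 0.887 and 3.08 normalized counts (log2 fold change -5.41, SE 0.43, adjusted p 8.18e-07), the opposite direction to NEUROD1. SCRT2, a neuronal repressor of the SNAIL family, fell 8.1003-fold, from 298, 264 and 289 to 32.99, 38.2 and 33.9. The retinoid receptor RXRG and the glial factor OLIG2 fell 5.66-fold and 4.56-fold.

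Keratins and squamous genes fell almost without exception. These genes belong to stratified and simple epithelia. Summed over the list, the DMSO libraries held 115932 to 119168 normalized counts and the 1.5 µM libraries 65112 to 68178. Of 30 tested, 27 fell, 1 rose and 2 did not pass, with the lowest median of the 47 lists, -1.33, and 19 members at least 2-fold lower. TP63, the master factor of squamous epithelium, went from 569, 659 and 612 to 20.6, 20.4 and 26.7 normalized counts (log2 fold change -4.71, SE 0.22, adjusted p 1.44e-08). KRT15, a keratin of basal cells, went from 949, 892 and 826 to 21.6, 19.5 and 35.9 (log2 fold change -5.11, SE 0.20, adjusted p 4.04e-09). The hair keratin KRT81, which is outside the list, went from 269, 240.3 and 221 to 4.12, 0.887 and 4.103 (log2 fold change -6.05, SE 0.41, adjusted p 2.59e-07). The 1.5 µM libraries of these genes were all under 10% of any DMSO library. KRT81 was under 10 normalized counts in every JQ1 library, so it entered the test only through the DMSO libraries and could only fall. CEACAM6, an epithelial surface protein, fell 17.6-fold and the galectin LGALS7 18.6-fold. KRT23, ELF3 and OVOL1, of this list, were among the genes higher in 1.5 µM replicates 1 and 2.

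Extracellular matrix genes were mixed and held several of the genes that part the libraries. Of 49 tested, 26 fell, 11 rose and 12 did not pass. COL17A1, a transmembrane collagen of hemidesmosomes, fell from 1083, 1137 and 1131 to 54.6, 53.2 and 67.7 normalized counts (log2 fold change -4.24, SE 0.11, adjusted p 3.39e-10). ITGB3, the integrin beta 3 chain, rose from 6.08, 6.998 and 9.41 to 80.4, 101 and 108 (log2 fold change 3.53, SE 0.24, adjusted p 2.87e-07). ITGB3 was under 10 normalized counts in every DMSO library and entered the test only through the JQ1 libraries, so it could only rise. COL3A1, ADAMTS1, TIMP3, LAMA1 and MMP14 did not pass the test and were high in replicates 1 and 2.

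Signalling pathways showed changes of both signs, with ligands, receptors and targets moving separately. Among 21 Notch genes, 9 rose and 9 fell. The ligand DLL1 went from 1045, 992 and 1066 to 178, 201 and 185 normalized counts (log2 fold change -2.46, SE 0.07, adjusted p 6.87e-10), and the ligand DLL4 fell 5.79-fold. HES1, the repressor that Notch signalling induces, went from 159, 163 and 152 to 18.6, 28.4 and 27.7 (log2 fold change -2.65, SE 0.20, adjusted p 7.11e-07). MFNG, the glycosyltransferase that tunes Notch receptors, fell 4.41-fold, and DLL3, the inhibitory ligand that marks neuroendocrine tumours, went from 3555, 3502 and 3442 to 1259, 1143 and 1126 (log2 fold change -1.57). Of 28 Wnt genes, 14 fell and 8 rose. NOTUM, a secreted enzyme that inactivates Wnt ligands, fell from 843, 855 and 844 to 139, 138 and 132 (log2 fold change -2.62, SE 0.09, adjusted p 1.50e-09), and the repressor TCF7L1 fell 5.61-fold. The receptor FZD1 rose from 564, 602 and 587 to 2142, 2169 and 2177 (log2 fold change 1.89, SE 0.05, adjusted p 4.44e-10), and the ligand WNT9A rose 3.22-fold.

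Of 8 Hedgehog genes, 4 fell and 3 rose. BOC, a co-receptor, went from 5602, 5766 and 6007 to 869, 876 and 1050.5 normalized counts (log2 fold change -2.64, SE 0.07, adjusted p 4.28e-10). SMO, the transducer, and GLI2, the transcription factor, fell 4.79-fold and 2.99-fold, whereas the receptor PTCH1 rose 1.92-fold. Of 29 TGF-beta and BMP genes, 8 fell, 7 rose and 14 did not pass, 51.7% called and so below the 73.1% of all genes. The activin chain INHBA fell from 364, 382 and 397 to 57.7, 47.03 and 50.3 (log2 fold change -2.86, SE 0.13, adjusted p 9.32e-09), and INHBB and the BMP-responsive inhibitor ID3 fell 3.5997-fold and 2.23-fold. FST, which traps activin, was called higher (2.03, 0 and 6.59 to 70.1, 49.7 and 7.18, adjusted p 0.0178), but its level at 1.5 µM rested on replicates 1 and 2. It was also under 10 normalized counts in every DMSO library and entered the test only through JQ1 libraries.

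Of 16 Hippo genes, 7 rose and 6 fell. AMOTL2, which holds YAP in check and is itself a YAP target, went from 1838, 1723 and 1799 to 445, 395 and 411 normalized counts (log2 fold change -2.10, SE 0.06, adjusted p 5.89e-10), and the partner factor TEAD3 fell 4.17-fold. The kinase STK3 rose 2.104-fold. YAP1 was among the genes that part the libraries: it had 11.2, 10.1 and 12.2 with DMSO and 178, 117 and 7.18 at 1.5 µM and did not pass the test. Of 31 receptor tyrosine kinases, 15 rose and 12 fell. DDR1, a collagen receptor, went from 2207, 2086 and 2153 to 432, 429 and 344 (log2 fold change -2.42, SE 0.09, adjusted p 2.86e-09). NTRK2, the BDNF receptor, went from 541, 606 and 618 to 81.4, 111 and 107 (log2 fold change -2.56, SE 0.17, adjusted p 1.72e-07), and TYRO3 and LTK fell 6.22-fold and 6.79-fold.

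**Figure D4:**
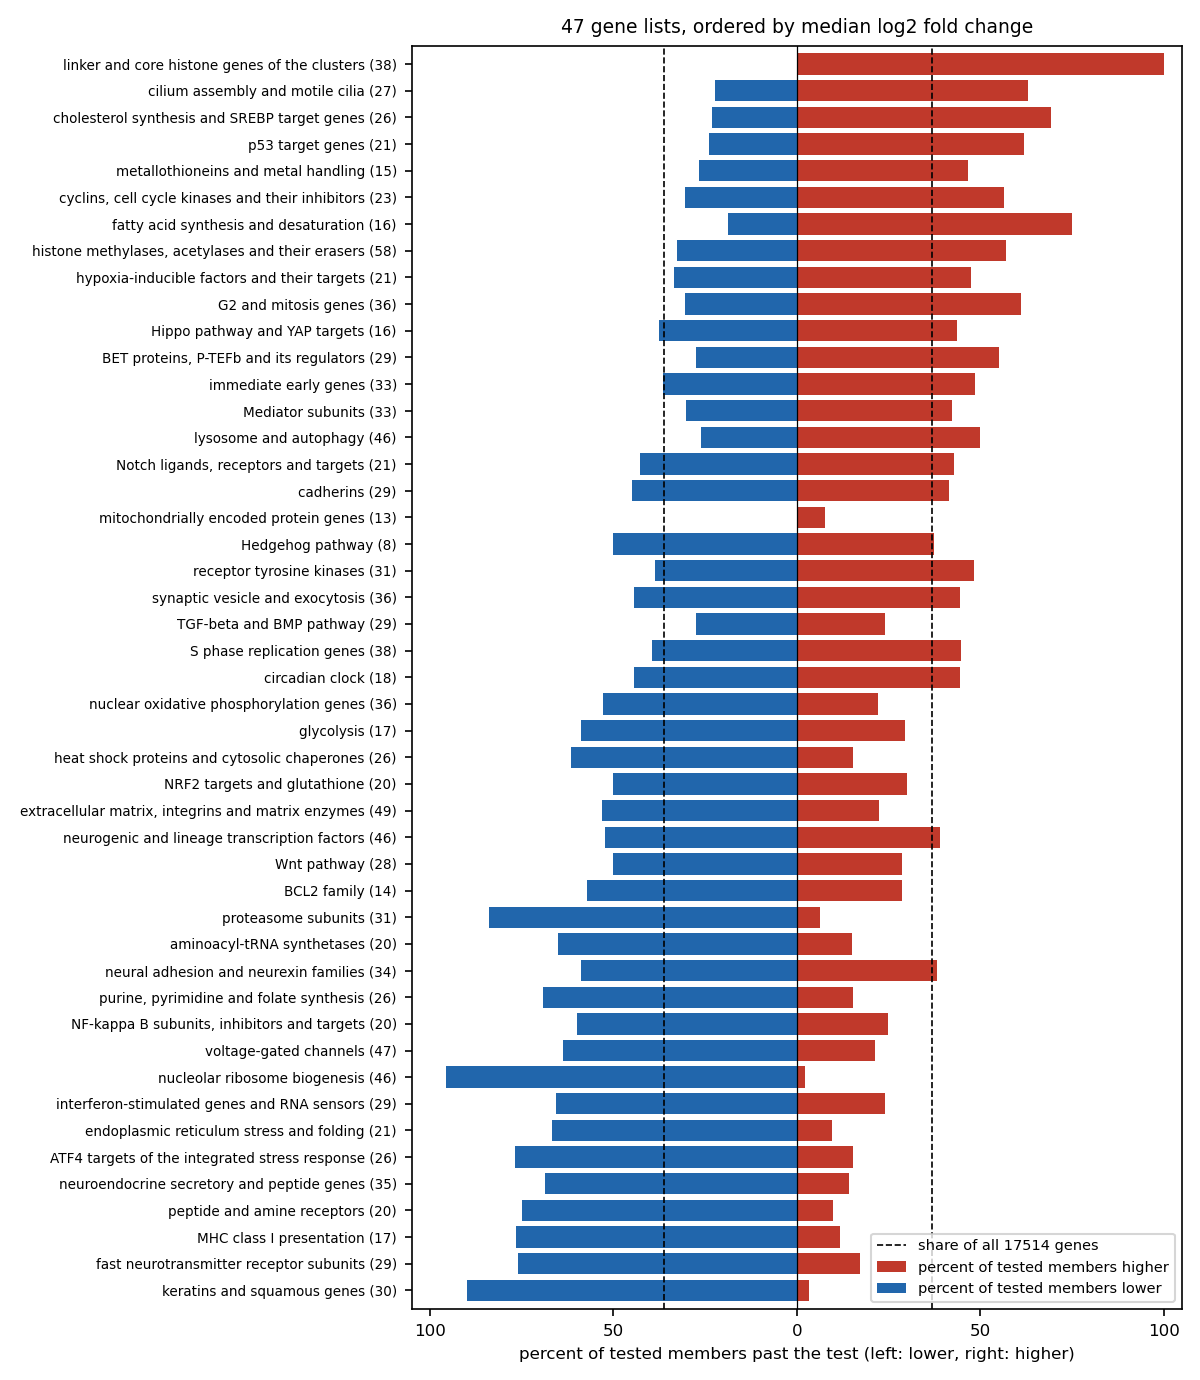
For each of 47 gene lists, the percent of tested members that were higher (red, right) or lower (blue, left) at 1.5 µM JQ1 than with DMSO, ordered by median log2 fold change, with the number tested in brackets. Dashed lines mark the 36.9% higher and 36.2% lower among all 17514 genes. Clustered histones reach 100% higher, in part because some members entered the test only through the JQ1 libraries. Nucleolar genes and keratins are almost wholly on the lower side.

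Genes of antigen presentation and innate immunity fell. MHC class I molecules show peptides to T cells, and their level is known to be low in small cell lung cancer. Of 17 presentation genes tested, 13 fell and 2 rose, with a median log2 fold change of -0.96. TAP2, which carries peptides into the endoplasmic reticulum, went from 1302, 1392 and 1327 to 340.2, 378 and 305 normalized counts (log2 fold change -1.98, SE 0.10, adjusted p 2.17e-08). NLRC5, the activator of class I genes, went from 478, 456 and 501 to 98.96, 118 and 108 (log2 fold change -2.14, SE 0.14, adjusted p 1.73e-07). The immunoproteasome subunit PSMB8 went from 1074, 1064 and 1092 to 312, 250.3 and 272 (log2 fold change -1.96, SE 0.10, adjusted p 3.03e-08), and the trimming peptidase ERAP2 fell 7.3003-fold. HLA-E, of this list, was higher in replicates 1 and 2 than in replicate 3 and did not pass the test. Of 29 interferon-stimulated genes and RNA sensors, 19 fell and 7 rose (median -0.59). IFIH1, a sensor of double-stranded RNA, went from 1396, 1379 and 1409 to 294, 297 and 286 (log2 fold change -2.25, SE 0.05, adjusted p 1.88e-10). The oligoadenylate synthetases OAS3 and OAS1 fell 4.49-fold and 7.45-fold, and TMEM173 (STING) fell from 104, 85.5 and 82.8 to 3.09, 5.32 and 10.3 (log2 fold change -3.79).

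Of 20 NF-kappa B genes, 12 fell and 5 rose (median -0.40). The chemokine CXCL1 had 267, 274 and 277 normalized counts with DMSO and 5.15, 5.32 and 18.5 at 1.5 µM (log2 fold change -4.91, SE 0.41, adjusted p 1.42e-06). IL8 had 88.2, 94.9 and 84.7 and 2.06, 1.77 and 2.05 (log2 fold change -4.93, SE 0.53, adjusted p 9.27e-06). Both chemokines came down to under 20 normalized counts in every 1.5 µM library. IL8 was under 10 in each of these and entered the test through the other libraries, so its call is in part fixed by the filter. TNFAIP2 fell 4.19-fold and the adhesion molecule ICAM1 5.98-fold.

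Targets of ATF4, the factor of the integrated stress response, fell. Of 26 tested, 20 fell and 4 rose, with a median log2 fold change of -0.66. TRIB3, a pseudokinase, went from 2765, 2621 and 2668 to 666, 632 and 673 normalized counts (log2 fold change -2.03, SE 0.05, adjusted p 2.03e-10). SLC7A11, the cystine importer that feeds glutathione synthesis, went from 2132, 2253 and 2483 to 343, 323 and 379.6 (log2 fold change -2.71, SE 0.08, adjusted p 5.83e-10). STC2, a secreted glycoprotein, went from 2850.1, 2724 and 2872 to 459, 485 and 441 (log2 fold change -2.61, SE 0.06, adjusted p 2.83e-10). TRIB3, SLC7A11 and STC2 fell 4.09-fold, 6.57-fold and 6.097-fold, and NUPR1, a small stress protein, went from 169, 155 and 143 to 0, 4.44 and 0. NUPR1 was under 10 normalized counts in every JQ1 library, so it entered the test only through the DMSO libraries and could only fall. Of 21 genes of endoplasmic reticulum stress and folding, 14 fell and 2 rose (median -0.61). HSPA5, the chaperone BiP, went from 55809, 55959.5 and 54380.5 to 29106, 28931 and 28847 (log2 fold change -0.94, SE 0.04, adjusted p 3.57e-09), and XBP1 fell 2.14-fold. ERN1, the sensor IRE1 that splices XBP1, rose 2.24-fold. Of 26 heat shock genes, 16 fell and 4 rose (median -0.15). HSPB1 had the largest fall, from 6938, 6731 and 6433 to 2018, 1826 and 1779 (log2 fold change -1.84, SE 0.05, adjusted p 4.64e-10), HSPE1 and CCT3 fell 1.68-fold and 1.53-fold, and DNAJB4 rose 1.91-fold.

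Lipid synthesis genes rose more often than they fell. Of 26 genes of cholesterol synthesis and SREBP control, 18 rose and 6 fell, with a median log2 fold change of 0.31 and a range of -2.87 to 1.22. At least 2-fold, 2 members were higher and 1 lower. The largest change of the list was this fall, in a gene with a mean under 20 normalized counts over the 6 libraries. INSIG1, which holds SREBP back, went from 4530.2, 4632 and 4608 to 10459, 10644 and 10797 normalized counts (log2 fold change 1.21, SE 0.03, adjusted p 2.02e-10). The sterol enzymes TM7SF2, LSS and SQLE rose 2.33-fold, 1.79-fold and 1.75-fold. Of 16 fatty acid genes, 12 rose and 3 fell. ACSL1, ACACB and LPIN1 rose 1.91-fold, 1.92-fold and 1.75-fold, and the elongase ELOVL6 fell 1.95-fold.

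Energy metabolism changed little as a whole. Of 17 glycolysis genes, 10 fell and 5 rose (median -0.14). Hexokinase 2 (HK2) went from 4891, 5032 and 5413 to 1920.4, 1970.1 and 1920.4 normalized counts (log2 fold change -1.40, SE 0.14, adjusted p 7.20e-06), PFKP and GPI fell 1.83-fold and 1.46-fold, and ALDOC rose 1.45-fold. Of 36 nuclear genes of oxidative phosphorylation, 19 fell and 8 rose, with no member changed 2-fold. NDUFB10, NDUFA4 and NDUFA9 of complex I fell 1.85-fold, 1.58-fold and 1.46-fold, and SDHA rose 1.49-fold. Of the 13 protein genes of the mitochondrial genome, 1 passed the test, MT-ND4 (361936, 382451 and 344156 to 388378, 428733 and 431997, adjusted p 0.0157), and it lost the call in 5 of 18 alternative analyses. Nucleotide synthesis leaned down, with 18 of 26 genes lower and 4 higher. MTHFD1L, a mitochondrial folate enzyme, fell 2.904-fold, CTPS2 2.304-fold, IMPDH1 2.12-fold and PRPS2 1.61-fold.

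Of 46 lysosome and autophagy genes, 23 rose and 12 fell. The autophagy kinase ULK2 went from 2119, 2101 and 2157 to 5034, 5383 and 5279 normalized counts (log2 fold change 1.30, SE 0.04, adjusted p 7.42e-10), the sialidase NEU1 rose 2.12-fold, MITF rose 2.11-fold and ATG9B fell 2.89-fold. Of 15 genes of metal handling, 7 rose and 4 fell. The metallothioneins MT2A and MT3 rose 2.68-fold and 2.13-fold, and the heme oxygenase HMOX1 fell 1.92-fold. Of 20 NRF2 and glutathione genes, 10 fell and 6 rose. The glutathione peroxidase GPX2 fell 3.91-fold and malic enzyme ME1 2.48-fold. Of 21 hypoxia genes, 10 rose and 7 fell. LOX went from 784, 758 and 803 to 99.99, 90.5 and 82.1 (log2 fold change -3.09, SE 0.16, adjusted p 3.59e-08), VEGFA fell 1.96-fold and BNIP3L rose 1.68-fold.

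Genes of ribosome making had the highest share of lower members of the 47 lists. Nucleolar proteins process ribosomal RNA, and many are known targets of MYC. Of 46 tested, 44 fell, 1 rose and 1 did not pass, with a median log2 fold change of -0.54. NOP16 went from 1937, 1872 and 1891 to 661, 713 and 718 normalized counts (log2 fold change -1.45, SE 0.05, adjusted p 2.07e-09). NOB1 went from 2268, 2298 and 2261 to 908, 861 and 890.5 (log2 fold change -1.36, SE 0.06, adjusted p 1.30e-08), and WDR74 and PPAN fell 2.39-fold and 2.24-fold. The falls were modest, and 5 of the 46 reached 2-fold. Of 20 tRNA synthetases, 13 fell and 3 rose (median -0.33), with YARS, MARS, FARSA and LARS 1.77-fold, 1.704-fold, 1.699-fold and 1.55-fold lower. Of 31 proteasome subunits, 26 fell and 2 rose (median -0.26). The catalytic subunits PSMB5 and PSMB6 fell 1.81-fold and 1.77-fold, and no subunit changed 2-fold.

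Most cell cycle genes passed the test, as did 73.1% of all genes, and the changes in the S phase and mitosis lists were under 2-fold. The shares called were 84.2% for S phase, 91.7% for G2 and mitosis and 87.0% for cyclins, kinases and inhibitors. Whether these shares exceed those of other genes of like abundance was not tested. Of 38 S phase genes, 17 rose and 15 fell, and of 36 genes of G2 and mitosis, 22 rose and 11 fell. The helicase subunits MCM2 and MCM5 fell 1.63-fold and 1.58-fold, POLE2 fell 1.99-fold, and CLSPN rose 1.71-fold. The mitotic genes HMMR, BUB1, KIF11 and ANLN rose 1.54-fold, 1.47-fold, 1.46-fold and 1.43-fold. Of 23 cyclins, kinases and inhibitors, 13 rose and 7 fell, and this list held larger changes. CCND2 (cyclin D2) went from 466, 517 and 492 to 86.6, 103 and 55.4 normalized counts (log2 fold change -2.62, SE 0.34, adjusted p 4.22e-05), and CCND1 and E2F2 fell 2.92-fold and 2.53-fold. CDKN2D, an inhibitor of CDK4 and CDK6, rose from 2385, 2362 and 2245 to 6187, 6008 and 6261 (log2 fold change 1.40, SE 0.05, adjusted p 2.22e-09).

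Of 21 p53 target genes, 13 rose and 5 fell (median log2 fold change 0.31). TP53INP1 went from 1621, 1656 and 1816 to 5432, 5771 and 5612 normalized counts (log2 fold change 1.72, SE 0.08, adjusted p 1.24e-08), RRM2B and PHLDA3 rose 2.18-fold and 1.74-fold, and AEN fell 2.27-fold. Of 14 BCL2 family genes, 8 fell and 4 rose. BCL2L11, the pro-death protein BIM, went from 2957, 2864 and 2962 to 6262, 6473 and 6546 (log2 fold change 1.13, SE 0.04, adjusted p 2.36e-09). BIK, another pro-death member, fell from 337, 298 and 316 to 98.96, 83.4 and 65.7 (log2 fold change -1.94, SE 0.14, adjusted p 5.19e-07), and BOK and BID fell 2.698-fold and 1.55-fold. Of 33 immediate early genes, 16 rose and 12 fell. EGR1, a growth factor-induced transcription factor, rose from 32.4, 50.5 and 51.7 to 246, 257 and 271 (log2 fold change 2.53, SE 0.17, adjusted p 2.60e-07), and GADD45B rose 7.23-fold. GADD45B was under 10 normalized counts in every DMSO library and entered the test only through the JQ1 libraries, so it could only rise. The phosphatase DUSP2 went the other way, from 1238, 1222 and 1179.8 to 174, 159 and 157 (log2 fold change -2.89, SE 0.08, adjusted p 4.77e-10), and GADD45G fell 4.43-fold.

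Chromatin enzymes leaned up, with 33 of 58 higher and 19 lower. The deacetylase HDAC9 fell from 4658, 4872 and 5023 to 1232, 1381 and 1259.8 normalized counts (log2 fold change -1.91, SE 0.05, adjusted p 6.06e-10), and HDAC7 and the acetylase KAT2A fell 2.48-fold and 2.07-fold. KAT2B, the close relative of KAT2A, rose 2.82-fold. Of 33 Mediator subunits, 14 rose and 10 fell, with MED24 2.02-fold and MED12 1.67-fold lower and CDK19 1.82-fold and MED23 1.63-fold higher. Of 18 clock genes, 8 rose and 8 fell. C1orf51 and DBP fell 4.54-fold and 2.14-fold, and RORA rose 2.13-fold. Of 27 cilium genes, 17 rose and 6 fell (median log2 fold change 0.45), although the members with the largest changes fell: TEKT2 4.88-fold, DNALI1 4.46-fold and DNAH5 3.301-fold. The axonemal dynein DNAH7 rose 3.26-fold.

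By gene type, protein-coding genes were called about equally in each direction, 5433 higher and 5507 lower of 13750, but at least 2-fold changes were 807 higher and 1744 lower. Transcripts annotated as antisense leaned up, with 313 of 792 higher (39.5%) and 154 lower (19.4%) and a median log2 fold change of 0.24. Long intergenic RNAs had 209 of 537 higher and 151 lower. Processed pseudogenes had 75 of 1093 higher and 198 lower, and their reads may come from their parent genes. The antisense counts carry the limit on strand given above.

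The genes that part the 1.5 µM libraries form a small fraction of the reads. The rule took genes at least 2-fold higher in both replicates 1 and 2 than in replicate 3, on normalized count + 1, with at least 20 in a library, and found 118 of 17187 genes considered (0.687%). Another 22 genes were at least 2-fold lower in replicates 1 and 2. Summed over the 118 genes, the 1.5 µM libraries held 17660, 14362 and 1787 normalized counts and the DMSO libraries 8153, 8131 and 6776, at most 0.0247% of a library. Replicate 3 thus lay below the DMSO libraries and replicates 1 and 2 above them, and 94 of the 118 genes had a DMSO mean above replicate 3. The 0.5 µM libraries split likewise, with sums of 4079, 4267 and 14982. Of the 118 genes, 69 (58.5%) were also at least 2-fold higher in 0.5 µM replicate 3 than in 0.5 µM replicates 1 and 2, a pattern that 88 of all 17187 genes (0.512%) showed.

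COL3A1, a fibrillar collagen, had 1107, 1022 and 31.8 normalized counts at 1.5 µM and 81.1, 96.4 and 95.02 with DMSO, and did not pass the test (adjusted p 0.299). GABRP, a GABA receptor subunit of epithelia, had 941, 781 and 2.05 and 14.2, 9.33 and 3.76 (adjusted p 0.164). ANXA1, a phospholipid-binding annexin, had 450.5, 313 and 4.103 and 146, 178 and 144 (adjusted p 0.7). In each of these genes replicate 3 was below all DMSO libraries, and replicates 1 and 2 were above them. AHNAK had 368, 324 and 21.5 at 1.5 µM, VTCN1 368, 290.2 and 1.03 and FLJ20373 738, 348 and 0. Of the 118 genes, 13 were called higher, 19 lower and 86 neither. The rule chose them by their spread within the 1.5 µM group, which enters that test, so these counts are a description. FSTL1, a secreted glycoprotein called higher (671, 583 and 268 against 219, 182 and 167, adjusted p 0.0258), had an adjusted p of 0.517 without replicates 1 and 2, where the group is 1 library. In the 19 called lower, every 1.5 µM library was below every DMSO library: ELF3, an epithelial ETS factor, had 62.9, 60.3 and 27.7 against 139.9, 122 and 126 with DMSO. Of 9 fibroblast markers, 5 were tested, and 2 of these, COL3A1 and LUM, were among the 118, whereas COL1A1 had 112, 96.7 and 87.2 at 1.5 µM and COL1A2 1680.2, 1593 and 1344. Their part in the split was not tested. Of the genes low in replicates 1 and 2, DNAJC25-GNG10 had 8.25, 8.87 and 238, IL5RA 7.22, 8.87 and 24.6 and OR2A1-AS1 38.1, 41.7 and 91.3.

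**Figure D5:**
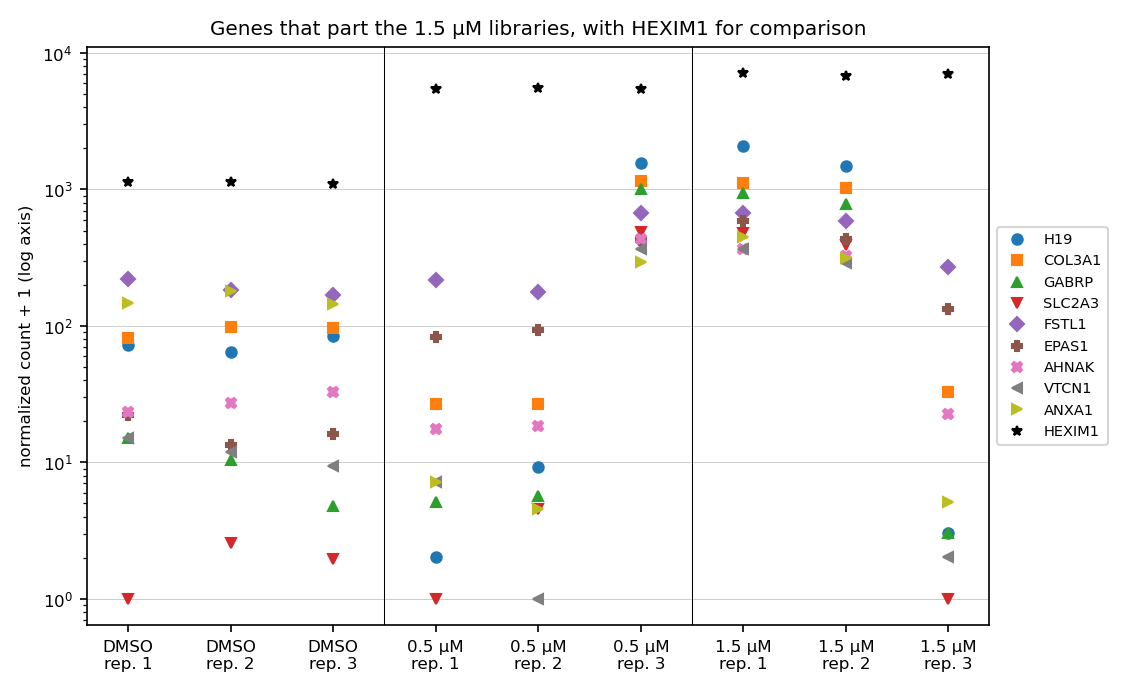
Normalized count + 1 (log axis) in each of the 9 libraries for 9 genes high in 1.5 µM replicates 1 and 2, with HEXIM1 (black stars) for comparison. H19, COL3A1, GABRP and SLC2A3 are high in 0.5 µM replicate 3 and 1.5 µM replicates 1 and 2, while HEXIM1 is even within each group, at 6819 to 7101 normalized counts at 1.5 µM.

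Beside the lower dose, 1.5 µM gave a further step in part of the genes. Between 1.5 and 0.5 µM, 816 genes (4.66%) were higher and 1417 (8.09%) lower at the higher dose. HEXIM1 had 5423, 5570.02 and 5469 normalized counts at 0.5 µM, so the step to 1.5 µM was 0.35 on the log2 scale (SE 0.03, adjusted p 0.000279). HIST1H2BD had 2310.5, 2589.6 and 2409 at 0.5 µM, a step of 0.47 (adjusted p 0.000728). PAX4 had 151, 127 and 121 at 0.5 µM, a step of -1.23 (adjusted p 0.000693), and CACNA1A had 209.6, 227 and 184, a step of -0.91 (adjusted p 0.000853). HDAC9 had 2170.4, 1999 and 2179, a step of -0.71 (adjusted p 0.000113). PCSK1 had 19145, 18028 and 18929, a step of -0.25 (adjusted p 0.00217), and DLK1 22372, 19473 and 22150.2, a step of 0.03 (adjusted p 0.694). These counts depended on single libraries: without 1.5 µM replicate 2 they were 240 higher and 755 lower, without 0.5 µM replicate 2 they were 1342 and 1875, and without 1.5 µM replicates 1 and 2 they were 8 and 191.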

How the data were processed

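Total RNA of COR-L279 cells was sequenced from stranded libraries, per the labels, in 3 libraries per group. The submitters' processing notes name the tools cutadapt, STAR and RSEM and the build hg19. Their versions and settings, and whether reads were counted by strand, are not stated in the sources at hand, so overlapping and antisense genes are uncertain. The authors deposited normalized counts, a signal made by dividing gene counts by 1 size factor per library, for 17518 genes. Division by 1 factor per library returned whole reads for 100% of values within a tolerance of 0.001, and these summed, for replicates 1 to 3, to 67520035, 88482001 and 73237162 in the DMSO libraries and 69286187, 80985676 and 70307954 at 1.5 µM. The authors also deposited FPKM values, rounded to 2 decimals, for 57820 genes.

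Differences were tested with limma 3.58.1 in R 4.3.3 (trend option) after taking log2 of the normalized count + 1. A joint fit held all 9 libraries, without a block for the replicate number. The 17514 genes kept had 10 or more normalized counts in 3 or more libraries. Genes under 10 in every DMSO library passed this filter only through JQ1 libraries, and a call as higher is for them in part fixed by the filter. The same holds for calls as lower where every JQ1 library was under 10. Such genes also enter the counts of list members called. Tests were two-sided, with Benjamini-Hochberg adjustment over all genes and a threshold of 0.05. On this scale folds of low genes are understated, and folds are relative to the bulk of genes. A fold without a log2 value is the ratio of group means. The test was checked on simulated data. Replicates differed by more than counting error, with a chi-square per degree of freedom of 3.40 to 7.54 within the groups compared. In the 0.5 µM group, replicates 1 and 3 gave 4.995, whereas the pairs with replicate 2 gave 26.7 and 31.0. The spread of 0.5 µM replicate 2 thus entered every SE and p-value of the joint fit. Without the 0.5 µM libraries, the test called 7003 genes higher and 7005 lower.

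The libraries, the 47 gene lists and the naming rule were chosen with earlier results of these data known. Named are HEXIM1, H19, SLC2A3, NEUROD1 and MYC; the 15 largest changes in each direction with a mean of at least 100, groups that stay apart and a symbol of a named gene rather than of a clone or pseudogene; the 10 most abundant genes changed at least 2-fold in each direction; for each list, up to 4 members changed most in size among those called with a mean of 20 or more; and the leading genes that part the 1.5 µM libraries. Cell type markers and members that part the libraries are named too. Some genes that the rule picks are not reported here. Gene types came from GENCODE release 29 by Ensembl ID for 16966 genes, and promoters from RefSeq (GRCh38.p14), which is not the build of the counts and served for sequence only. Alternatives were pseudocounts of 0.1 and 5, minimums of 0 and 50, FPKM (0.1 added before the log2; 3 libraries at 0.5 or more), scaling by TMM or by the upper quartile, edgeR 4.0.16 and DESeq2 1.42.0 on the whole reads, the 6 libraries alone, a replicate block, and each library, or 1.5 µM replicates 1 and 2 together, left out.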

Additional observations from a re-analysis of the deposited data

Results flagged for a closer look

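Genes outside the normalized count table were not tested, and some of them differed between the groups in the authors' deposited FPKM values. Of 40302 such genes, 58 had at least 0.5 FPKM in each 1.5 µM library and at least 2 times the level of the highest DMSO library, and 66 met the same rule in the other direction. Their depth is unknown from these values, and no test was made. HIST1H1PS1, a histone H1 pseudogene, had 0.26, 0.2 and 0 FPKM with DMSO and 4.92, 4.45 and 5.78 at 1.5 µM. HIST1H4D had 0.22, 0.06 and 0.2 FPKM and 0.66, 1.51 and 1.23. The small nuclear RNA pseudogene RNU1-60P had 1.19, 0.47 and 1.14 FPKM with DMSO and 10.3, 7.61 and 11.51 at 1.5 µM. The small nucleolar RNA SNORD13 was listed at 0 in the DMSO libraries and at 13.09, 4.37 and 10.12 FPKM at 1.5 µM. It was also at 0 in every 0.5 µM library. The 4 genes named were picked with their values in view.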

How the results depend on the processing

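For 1.5 µM against DMSO, 18 alternatives gave between 5295 and 7003 genes higher and between 5278 and 7005 lower, all within 1.5 times the main counts of 6468 and 6338. The replicate block gave 6482 and 6370, and 6385 and 6262 of these genes were also called without it. Same-numbered libraries showed no strong shared deviation (correlations of -0.38 to 0.13), which cannot settle whether the numbers pair them. The block changed the side of the threshold of no gene picked for naming. Leaving out 1 of the 6 libraries gave 6066 to 6186 higher and 5852 to 6034 lower. With the FPKM values 5330 were higher and 6245 lower, and 7 genes were called in the opposite direction. Of 226 genes picked for naming and past the test, 221 kept it in the same direction under every alternative that gave a value.

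Between 1.5 and 0.5 µM the counts were 816 higher and 1417 lower. They moved to 8 and 191 without 1.5 µM replicates 1 and 2, where the group is 1 library assumed to vary like the others, and leaving out 1 library gave 240 to 1342 higher and 755 to 1875 lower. With edgeR they were 840 and 1443, and with the replicate block 759 and 1271. The cause was not tested.

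Of the genes high in 1.5 µM replicates 1 and 2, 118 at 2-fold, 69 passed at 4-fold, and FPKM values gave 59, of which 54 were shared. Of the 22 low there, 5 passed at 4-fold and FPKM gave 22. The cause was not tested. Without 1.5 µM replicates 1 and 2 the log2 fold change turned negative for H19 (-4.58), COL3A1 (-1.48), AHNAK (-0.29) and VTCN1 (-2.56) and positive for OR2A1-AS1 (0.0597). Leaving out 1 library at a time gave -0.12 to 4.58 for H19, -3.43 to 1.33 for FLJ20373, -1.96 to 1.27 for ANXA1 and -1.02 to 1.33 for DNAJC25-GNG10. FLJ20373 and ANXA1 also turned positive with edgeR (0.50 and 0.71) and DESeq2 (0.50 and 0.71). These 8 genes did not pass the test in the results reported.

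Of 47 list medians, 3 changed sign. The Hippo median was -0.0382 without 1.5 µM replicates 1 and 2. The Notch median was -0.0157 with FPKM, -0.00601 without 1.5 µM replicates 1 and 2, and -0.0282 to 0.0795 when 1 library was left out. The cadherin median was -0.25 with FPKM, -0.0319 with a minimum of 50 and with the 6 libraries alone, -0.0393 without 1.5 µM replicates 1 and 2, and -0.0858 to 0.0903 when 1 library was left out. Depth limits genes of low normalized counts, where the log2 scale of value + 1 understates folds.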
